A study of Mus musculus with 23 samples.

Results

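The 9 genes described here encode G protein-coupled receptors that have been studied in the oligodendrocyte lineage: Gpr37, Gpr37l1, Adgrg1, Adgrb3, Lpar1, S1pr5, Chrm1, Chrm3 and Ednrb. They were taken by name from a fixed list and make up 9 of the 35385 gene symbols in each count table. That list, like the gene lists used below, was chosen with earlier results of these data known. Shares of called genes are therefore given beside those of all genes as description only. G protein-coupled receptors cross the membrane in a bundle of helices and pass an outside signal, such as a lipid, a peptide, acetylcholine or a matrix protein, to G proteins and arrestins inside the cell. In oligodendrocyte progenitor cells (OPCs) and the oligodendrocytes (OLs) that form from them, such receptors are known for holding back or favouring division, differentiation and myelination. Several of them are also made by astrocytes.

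The series measured poly(A) RNA in 23 libraries of mouse cells in 8 groups. The OPCs derive from 2 lines of epiblast stem cells, EpiSC5 (mouse strain 129SvEv) and 129O1 (129S1/SvImJ). Which line each library came from is not given by the columns used here. The labels place targeted and control cells of an experiment in 1 starting batch of OPCs, and a difference in line between groups was not tested. A first set held OPCs and O1-positive OLs, each purified with magnetic beads (3 libraries each, given as TPM, a measure of transcript abundance corrected for transcript length). The other 17 libraries followed OPCs that carried a lentiviral CRISPR vector with a non-targeting guide (control), SOX6 guide 1 or SOX6 guide 2. All of these cells, controls included, had passed 96 hours of puromycin selection (500 ng/mL), and no cloning step is named. They were then kept for 60 hours either in growth medium with bFGF and PDGFA (called OPCs here; 3, 2 and 3 libraries) or in a medium that permits differentiation and lacks thyroid hormone (called OLs here, as in the labels, although these cultures were not sorted; 3 libraries per guide). SOX6 is a transcription factor of the SOX family, and the series title places the work around the timing of oligodendrocyte maturation. The libraries of a group are lettered A, B and C in the tables. Whether they were separate cultures is not stated, so the p-values here speak only to the spread among these libraries, and that spread may be technical.

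The guides define the perturbation and are printed first, 5′ to 3′, in lower case with the adjoining NGG motif of the genome (the PAM that Cas9 needs) in capitals. Guide 1 matched Sox6 at chr7:115580612-115580631 on the plus strand and guide 2 at chr7:115512747-115512766 on the minus strand (GRCm38, GENCODE M21). Guide 1 lay in the coding part of 9 of the 12 Sox6 transcripts that hold its site, and guide 2 in that of 8 of 10, of 16 annotated Sox6 transcripts. Each had a site with its PAM in transcripts of 1 gene, Sox6, and the non-targeting guide had one in transcripts of 0 genes.
SOX6 guide 1: ttgacggaatgaactgtacgGGG
SOX6 guide 2: agaacacgctttgagaacctGGG
non-targeting guide: aagcctacttcaccggtcgg

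Sox6 itself was at 165, 201 and 234 CPM (read counts relative to library size, scaled by TMM) in control OPCs and at 67.4 to 88.9 CPM in the 5 targeted OPC libraries, which is 41.0% of the control mean for guide 1 and 38.0% for guide 2. In OLs it was at 387 to 437 CPM in controls and at 157 to 259 CPM in the 6 targeted libraries (53.0% and 61.4%). No targeted library reached the controls at its stage. Total counts ran from 13967438 to 16958611 in OPC libraries and from 13124580 to 18551822 in OL libraries. The guide 1 OL library B stood apart: its log2 CPM correlated with the other guide 1 libraries at r = 0.954 and 0.950 across genes, against 0.984 between those 2, and its counts leaned away from long transcripts (Spearman's rho across genes -0.39, against 0.301 and 0.357 in libraries A and C). Control OPC libraries A and C also differed in that lean (-0.207 and 0.209). Results that move without a library are given with and without it.

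Lineage markers were compared with the labels first. Summed myelin markers (10 genes) were at 49.4 to 77.6 TPM in sorted OPCs and at 26260 to 26510 TPM in sorted OLs, and at 136 to 170 CPM in control OPCs and 2037 to 2237 CPM in control OLs. Of 8 progenitor markers, 2 were higher and 5 lower in sorted OLs, whereas 6 were higher and 2 lower in control OLs, where their sum was 8078 to 8458 CPM against 4442 to 5364 CPM in control OPCs. On SOX6 targeting, 4 of these 8 fell in OPCs and 5 of 8 in OLs, and myelin markers rose in 3 of 7 tested in OPCs and 5 of 9 in OLs. Markers of newly formed OLs fell in 4 of 8 in targeted OLs. Beside these counts, 3.59% of all genes passed the test for targeting in OPCs and 6.50% in OLs. With stage, 43.0% of all genes passed in control cells and 61.0% in sorted cells. Astrocyte markers (12 genes) summed to 1616 to 1780 CPM in control OPCs, 6988 to 7289 CPM in control OLs, 7881 to 9223 CPM in guide 1 OLs and 8389 to 8520 CPM in guide 2 OLs. Their sum was 585 to 655 TPM in sorted OPCs and 2085 to 4154 TPM in sorted OLs. In control OLs the largest means of that list were those of Apoe (2175 CPM), Slc1a2 (1883 CPM), Aldoc (1209 CPM) and Gja1 (829 CPM). Gfap had a mean of 2.58 CPM in control OLs and 193 TPM in sorted OLs (99.3 to 376 TPM), and Gjb6 was at 0 in sorted OPCs and guide 2 OPCs. Microglial markers (6 genes) summed to at most 1.91 CPM and pluripotent markers (3 genes) to at most 2.86 CPM in any library. The part of astrocyte-like cells in the receptor results was not tested. In bulk samples, fewer cells of a type and less RNA per cell cannot be told apart.

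In all, 5 comparisons were made, and the receptors took part unevenly. SOX6 targeting in OPCs changed 1 of the 8 receptors tested, Gpr37, where 3.59% of all genes passed (edgeR quasi-likelihood test, with the Benjamini-Hochberg adjusted p below the threshold of 0.05). In OLs it changed 4 of 9 (Gpr37, Chrm3 and Ednrb rose, Gpr37l1 fell), where 6.50% of all genes passed. The response differed between the stages, by a test of the difference itself, for 2 of 9 (Gpr37 and Chrm3) and for 1.69% of all genes. Control OLs differed from control OPCs in 6 of 9 receptors (5 higher, 1 lower) and in 43.0% of all genes. Sorted OLs differed from sorted OPCs in 8 of 8 receptors tested (5 higher, 3 lower) and in 61.0% of all genes. The filter for sorted cells asked for at least 1 TPM in 3 of 6 libraries. S1pr5 passed it only through the OL libraries and Chrm3 only through the OPC libraries, so their sorted calls are not independent of the filter. The median log2 change was -0.019 over the receptors and -0.0049 over all genes for targeting in OPCs, and 0.49 and -0.00078 for targeting in OLs. For the stage comparisons these medians were 0.86 and 0.021 in control cells, and 1.96 and -0.14 in sorted cells. The receptor median of 0.49 is the value of S1pr5, which had few counts and was not called on targeting. Lpar1 and Chrm1, also with few counts and not called, lay above it, so that median does not show a shared rise. Comparisons of targeted with control cells share their control libraries with the comparison of control OLs and control OPCs, so the values are given side by side and not as support for each other. Stage and table cannot be told apart in the SOX6 experiment, since each stage was deposited in its own table.

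**Figure D1:**
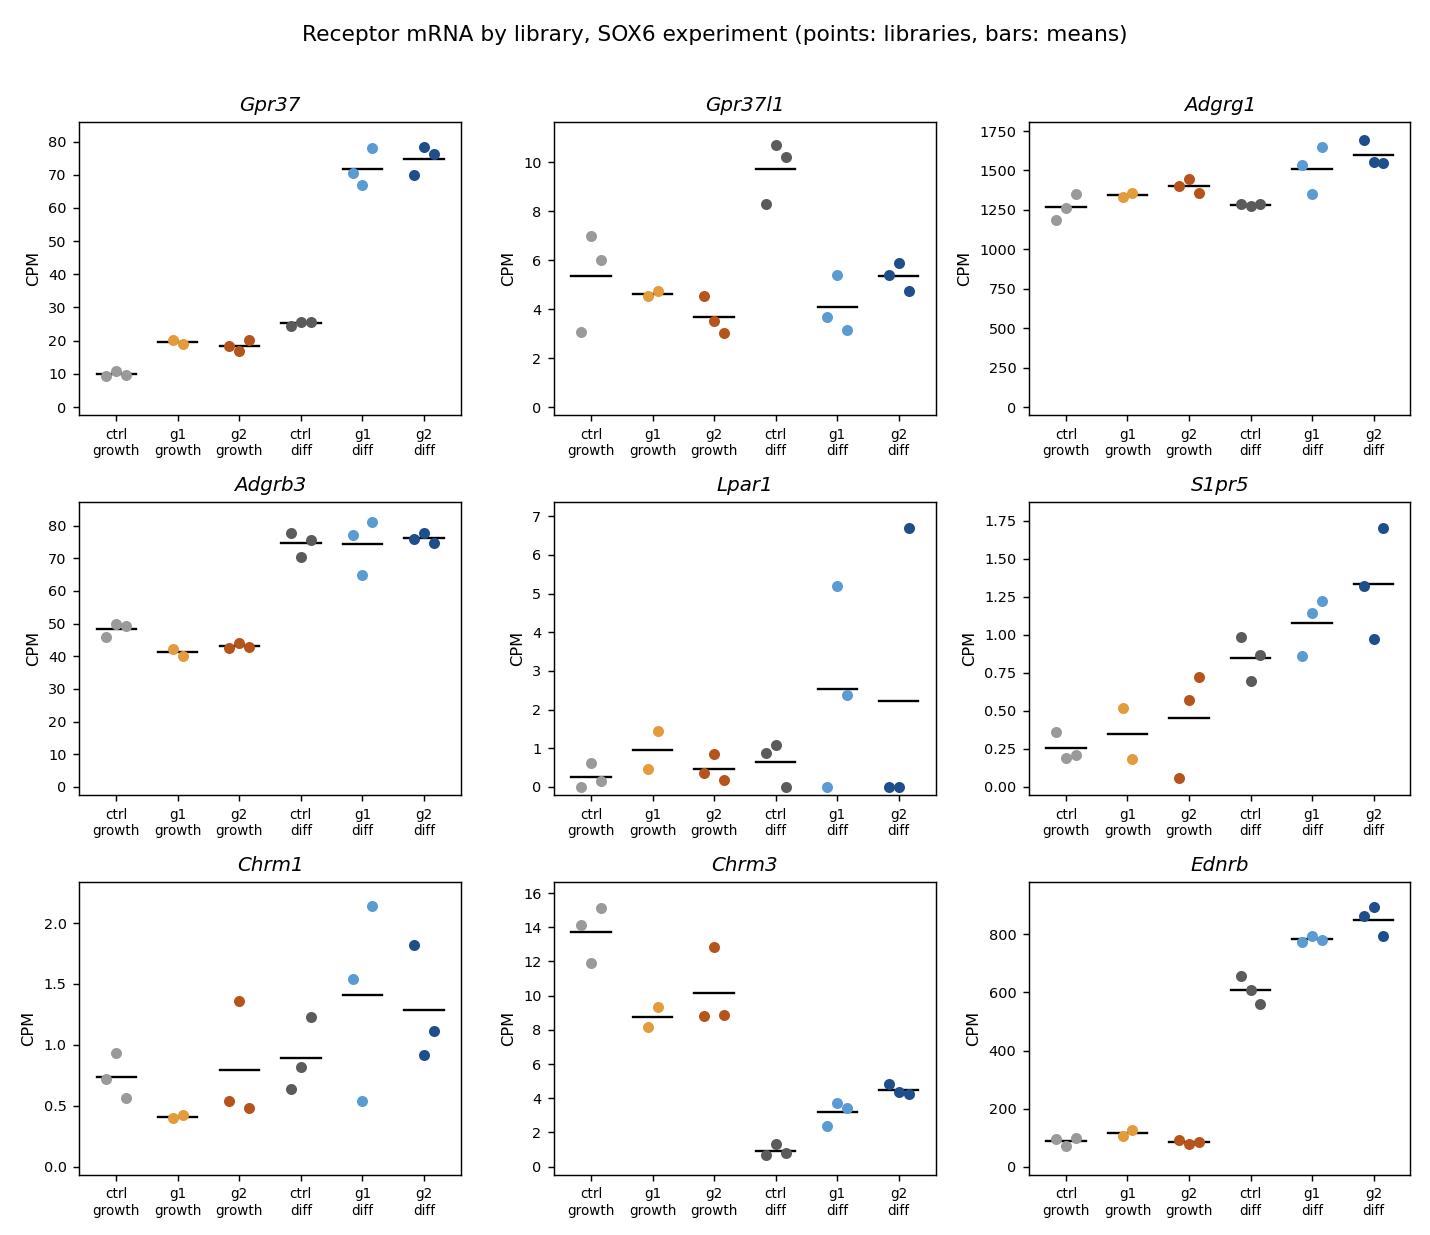
Levels of the 9 receptors in the SOX6 experiment, in CPM on a linear axis from 0. Points are libraries, bars are group means, ctrl is the non-targeting guide, g1 and g2 are the SOX6 guides, growth is growth medium and diff is differentiation medium. Gpr37 is higher in each targeted group than in the control of its stage, and Chrm3 is lowest in control OLs.

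In length-corrected units the receptors covered a wide range. Adgrg1 was the most abundant in all 6 groups of the SOX6 experiment and in sorted OPCs, with 560 ± 81.4 TPM (SD, n = 3) in control OPCs and 405 ± 22.8 TPM (n = 3) in sorted OPCs. Ednrb came next in those groups (25.9 ± 3.98 TPM in control OPCs, n = 3), then Adgrb3 in growth medium, in control OLs and in sorted OPCs (9.86 ± 0.865 TPM in control OPCs, n = 3). Lpar1, S1pr5 and Chrm1 had means below 1 TPM in every group of the SOX6 experiment, and neighbours in the order among them overlapped in control OPCs. In sorted OLs the order changed. Gpr37l1 (167 ± 13.8 TPM, n = 3) and Adgrg1 (158 ± 10.9 TPM, n = 3) led there with overlapping libraries, Ednrb and Gpr37 followed, and Chrm3 was last at 0.111 ± 0.0054 TPM (n = 3), overlapping Chrm1.

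GPR37 and GPR37L1 are a pair of related receptors, close in sequence to the endothelin receptors, for which prosaposin has been proposed as a ligand. GPR37 is known from maturing oligodendrocytes, where it has been described as a brake on differentiation, and GPR37L1 is best known from astrocytes. Gpr37 lies at chr6:25665878-25690729 and Gpr37l1 at chr1:135160234-135167681, both on the minus strand (GRCm38), and no annotated gene overlaps either.

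Gpr37 was at 9.39, 10.7 and 9.56 CPM in control OPCs, at 20.2 and 18.9 CPM in guide 1 OPCs and at 18.5, 16.9 and 20.2 CPM in guide 2 OPCs. All 5 targeted libraries lay above all 3 controls, and both guides overlapped. Gpr37 rose 1.95-fold (log2 change 0.96, SE 0.107, edgeR adjusted p = 0.00279). In OLs it was at 24.5, 25.7 and 25.6 CPM in controls, at 70.6, 66.9 and 78.2 CPM with guide 1 and at 70.0, 78.4 and 76.1 CPM with guide 2. The 6 targeted libraries lay far above the 3 controls. The rise was 2.89-fold (log2 change 1.53, SE 0.0851, edgeR adjusted p = 2.65e-05), and it held in 18 of 18 alternatives in OLs and in 17 of 17 in OPCs. Each guide alone gave the call at both stages.

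The response of Gpr37 was larger in OLs than in OPCs by 0.59 on the log2 scale (SE 0.11, edgeR adjusted p = 0.0163). That difference was called in 19 of 25 alternatives. It was not called with guide 1 alone (adjusted p = 0.102), with library totals as the scale (0.0815), with a block for the column letters (0.0714), or without control OPC library B (0.0717), guide 1 OPC library B (0.0558) or control OL library A (0.0621), each by edgeR. Gpr37 also differed with stage in cells that were not targeted. It was 2.55-fold higher in control OLs than in control OPCs (log2 difference 1.35, SE 0.0936, edgeR adjusted p = 2.59e-08). In sorted cells it was at 1.75, 1.57 and 2.43 TPM in OPCs and at 48.8, 53.3 and 48.1 TPM in OLs, with a log2 difference of 4.14 on the log2(TPM + 1) scale (SE 0.15, limma adjusted p = 1.05e-06). The order of the 6 SOX6 groups was thus guide 2 and guide 1 OLs, which overlapped, then control OLs, then guide 1 and guide 2 OPCs, which overlapped, then control OPCs.

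Gpr37l1 had fewer reads, from 41 to 170 counts per library. It was at 3.08, 6.99 and 6.02 CPM in control OPCs, at 4.53 and 4.75 CPM with guide 1 and at 4.56, 3.50 and 3.01 CPM with guide 2, and these groups overlapped (log2 change -0.36, SE 0.28, edgeR adjusted p = 0.591). In OLs it was at 8.29, 10.7 and 10.2 CPM in controls, at 3.69, 5.39 and 3.14 CPM with guide 1 and at 5.40, 5.90 and 4.75 CPM with guide 2. All 6 targeted libraries lay below all 3 controls. Gpr37l1 fell by 1.06 on the log2 scale (SE 0.20, edgeR adjusted p = 0.0144), the opposite direction to Gpr37. The call did not hold with guide 2 alone (edgeR adjusted p = 0.0876), without control OL library B (0.0933) or without control OL library C (0.082). The difference in response between stages was not called for Gpr37l1 (log2 -0.68, SE 0.35, edgeR adjusted p = 0.516).

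The stage difference of Gpr37l1 was far larger in sorted cells than in the medium change, although the 2 settings were not tested against each other. Control OLs were 1.81-fold above control OPCs (log2 difference 0.86, SE 0.28, edgeR adjusted p = 0.0235). That call was lost without control OPC library A, the lowest of its group (adjusted p = 0.0887), and without control OL library B (0.0714) or C (0.0599). Sorted OPCs had 1.08, 0.871 and 1.66 TPM and sorted OLs 174, 151 and 176 TPM, with a log2 difference of 6.26 (SE 0.15, limma adjusted p = 2.67e-07), the largest among the receptors. Astrocytes are also known for Gpr37l1. The astrocyte markers summed to 585 to 655 TPM in sorted OPCs and 2085 to 4154 TPM in sorted OLs, but they did not move as one. Of 10 tested, 4 were higher and 3 lower in sorted OLs (70%, near the 61.0% of all genes). The mean of Gfap went from 0.252 to 193 TPM and that of Gja1 from 91.4 to 200 TPM. Apoe went from 77.9 to 1380 TPM and S100b from 22.9 to 989 TPM. Slc1a3 went from 25.2 to 2.83 TPM, Sox9 from 47.1 to 16.9 TPM and Fgfr3 from 51.5 to 24.9 TPM. The part of these markers in the difference was not tested.

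ADGRG1 (also GPR56) is an adhesion receptor that keeps OPCs dividing and binds transglutaminase 2 and collagen III, and ADGRB3 (also BAI3) is an adhesion receptor for C1q-like proteins. Adgrg1 lies at chr8:94974751-95014217 on the plus strand, and Adgrb3 at chr1:25067476-25829707 on the minus strand (GRCm38). Both were among the more abundant receptors.

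Adgrg1 was at 1184, 1264 and 1348 CPM in control OPCs and at 1331 to 1444 CPM in the 5 targeted OPC libraries, which overlapped the controls (log2 change 0.14, SE 0.049, edgeR adjusted p = 0.191). In OLs the controls were at 1288, 1273 and 1286 CPM, guide 1 at 1535, 1348 and 1651 CPM and guide 2 at 1696, 1551 and 1547 CPM. Every targeted OL library lay above every control, but the difference missed the threshold (log2 change 0.27, SE 0.0768, edgeR adjusted p = 0.0749). It was called without guide 1 OL library B (log2 0.31, adjusted p = 0.000793), with both stages in 1 edgeR fit (0.0099) and by DESeq2 (0.00942), and in OPCs without control OPC library C (0.0447). The authors' deposited table gives the OL contrast as -0.21 for control over targeted, with an adjusted p of 0.586. In TPM, guide 1 OL library B had 383 TPM of Adgrg1 against 743 and 811 TPM in libraries A and C. With an offset for transcript length the edgeR adjusted p in OLs was 0.498.

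Adgrg1 did not separate control OLs from control OPCs (log2 difference 0.020, SE 0.0726, edgeR adjusted p = 0.856), and this small value changed sign without control OPC library A. Sorted OLs had 168, 146 and 158 TPM against 395, 389 and 431 TPM in sorted OPCs, so that Adgrg1 was 2.56-fold lower (log2 difference -1.36, SE 0.0728, limma adjusted p = 6.27e-06). No sorted library of one stage reached the other.

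Adgrb3 was at 46.0, 50.0 and 49.2 CPM in control OPCs, at 42.3 and 40.2 CPM with guide 1 and at 42.6, 44.0 and 42.9 CPM with guide 2. In CPM the targeted OPC libraries lay below all controls, yet the difference missed the threshold (log2 change -0.18, SE 0.0532, edgeR adjusted p = 0.127). In TPM the groups overlapped, with control OPC library A at 8.88 TPM and the targeted OPC libraries at 8.74 to 9.25 TPM. In OLs the controls ran from 70.4 to 77.7 CPM and the targeted libraries from 64.9 to 81.1 CPM, with full overlap (log2 change 0.011, SE 0.0864, edgeR adjusted p = 0.966), and this value changed sign with library totals as the scale (-0.054). The difference in response between stages was 0.21 (SE 0.0983, edgeR adjusted p = 0.446), and it was called without guide 1 OL library B (log2 0.26, adjusted p = 0.0475).

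With stage, Adgrb3 went opposite ways in the 2 settings. It was 1.54-fold higher in control OLs than in control OPCs (log2 difference 0.62, SE 0.0788, edgeR adjusted p = 1.42e-05). In sorted cells it was at 8.61, 7.83 and 8.47 TPM in OPCs and at 2.94, 3.75 and 3.84 TPM in OLs, which is lower (log2 difference -1.05, SE 0.15, limma adjusted p = 0.000812). Each of these calls held in all alternatives run for it, 24 in control cells and 10 in sorted cells. The difference between the settings was not tested, since the sorted cells were deposited in another unit and table.

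**Figure D2:**
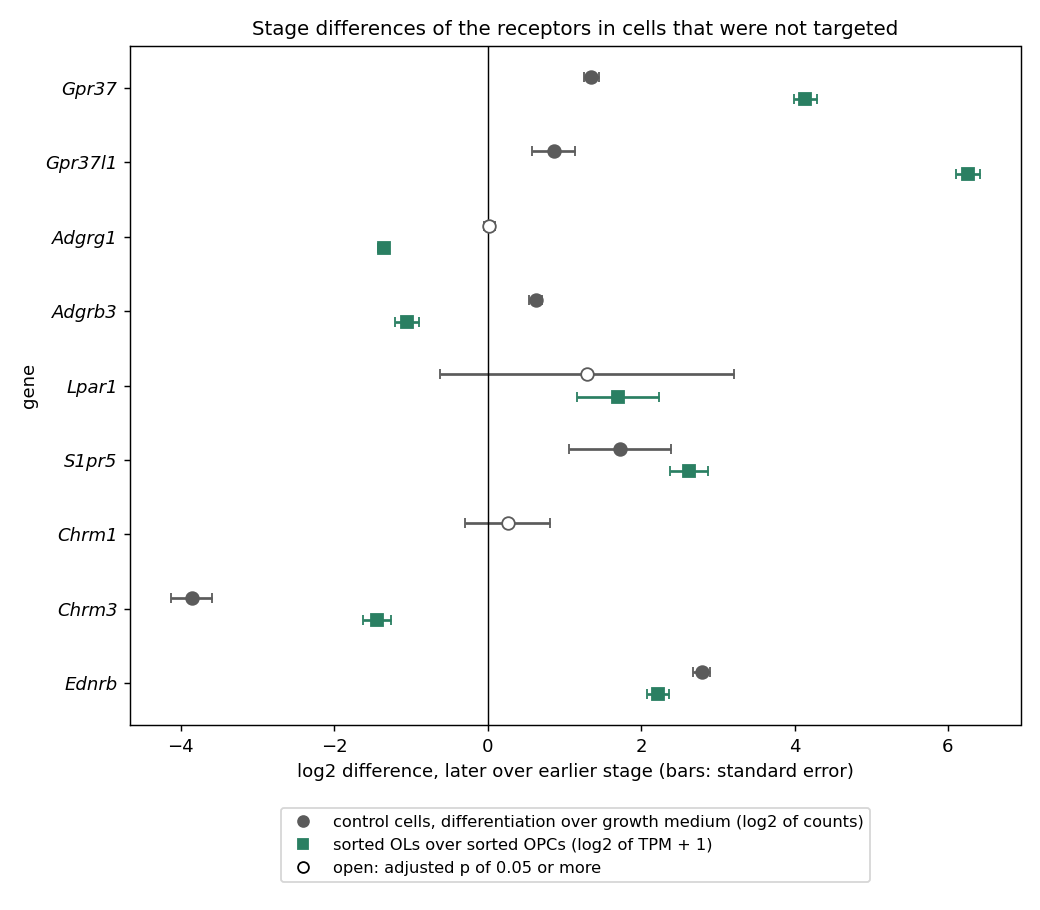
Log2 difference of each receptor between stages in cells that were not targeted, for control OLs over control OPCs (circles, edgeR on counts) and sorted OLs over sorted OPCs (squares, limma on log2(TPM + 1)). Bars are standard errors and open symbols missed the threshold; Adgrb3 lies at 0.62 and -1.05, and Gpr37l1 at 0.86 and 6.26.

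LPAR1 is a receptor for lysophosphatidic acid and S1PR5 one for sphingosine 1-phosphate, and both are known from oligodendrocytes late in maturation. Both were near the lower limit of these libraries in the SOX6 experiment. Lpar1 lies at chr4:58435255-58553898 and S1pr5 at chr9:21242912-21248443, both on the minus strand (GRCm38). An annotated transcript on the opposite strand, Gm48303, overlaps exons of S1pr5, and the kit did not mark strand.

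Lpar1 jumped between libraries of 1 group. It was at 0, 0.624 and 0.142 CPM in control OPCs, at 0.458 and 1.44 CPM with guide 1 and at 0.36, 0.857 and 0.181 CPM with guide 2. In OLs it was at 0.87, 1.07 and 0 CPM in controls, at 0, 5.19 and 2.37 CPM with guide 1 and at 0, 0 and 6.69 CPM with guide 2. Those last 3 values stand for 0, 0 and 114 counts of the estimate that Salmon shares out between transcripts, so a count of 0 beside 114 in a group is listed as deposited and gives no level. No SOX6 comparison called Lpar1, with edgeR adjusted p of 0.56 in OPCs and 0.669 in OLs. Sorted cells had 1.20, 0.97 and 0 TPM in OPCs and 7.39, 6.44 and 1.39 TPM in OLs (log2 difference 1.70, SE 0.53, limma adjusted p = 0.0273). That rise with stage was lost in 5 of 10 alternatives, with adjusted p from 0.00227 to 0.0875.

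S1pr5 had 1 to 12 counts per OPC library and 11 to 29 per OL library. It fell under the filter for OPCs alone and was not tested there. S1pr5 passed the filter for all 17 libraries only with the OL libraries, so its stage call in control cells is not independent of that filter. In OLs it was at 0.986, 0.693 and 0.864 CPM in controls, at 0.861, 1.15 and 1.22 CPM with guide 1 and at 1.32, 0.974 and 1.70 CPM with guide 2, and the groups overlapped (log2 change 0.49, SE 0.34, edgeR adjusted p = 0.513). Control OLs were above control OPCs (0.358, 0.187 and 0.212 CPM) in every library, with a log2 difference of 1.72 (SE 0.66, edgeR adjusted p = 0.048), but 15 of 24 alternatives lost that call. In sorted cells the libraries of the stages did not overlap. The gene passed the filter there only through the OL libraries, so the sorted call is not independent of the filter. S1pr5 was listed at 0, 0 and 0.0372 TPM in OPCs and at 7.70, 4.90 and 3.72 TPM in OLs (log2 difference 2.62, SE 0.25, limma adjusted p = 9.54e-05).

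CHRM1 and CHRM3 are muscarinic acetylcholine receptors that signal through Gq and phospholipase C. Muscarinic signalling is known for holding OPCs back from differentiation, and blockers of these receptors are used to favour it. Chrm1 lies at chr19:8663789-8683587 on the plus strand, with an exon overlap by the small RNA gene Gm22820 on the other strand, and Chrm3 at chr13:9875486-10360847 on the minus strand (GRCm38). Of 6 annotated genes that overlap the span of Chrm3, 0 overlap its exons; the pseudogene Gm47406 among them reached 9.97 TPM.

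Chrm3 was at 14.1, 11.9 and 15.2 CPM in control OPCs, at 8.19 and 9.32 CPM with guide 1 and at 8.82, 12.9 and 8.85 CPM with guide 2. One guide 2 library lay within the controls and the other targeted libraries below them (log2 change -0.52, SE 0.16, edgeR adjusted p = 0.143). The authors' deposited table gives the same contrast as 0.55 for control over targeted, with an adjusted p of 0.0462. In OLs the order was reversed. Controls were at 0.696, 1.32 and 0.792 CPM (12, 21 and 11 counts), guide 1 at 2.40, 3.70 and 3.44 CPM and guide 2 at 4.85, 4.35 and 4.23 CPM. The groups did not overlap, and Chrm3 rose 3.99-fold (log2 change 2.00, SE 0.30, edgeR adjusted p = 0.00521), by each guide alone and in 18 of 18 alternatives.

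The response of Chrm3 in OLs exceeded that in OPCs by 2.54 on the log2 scale (SE 0.32, edgeR adjusted p = 0.000793), the largest such difference among the receptors, and it was called in 25 of 25 alternatives. The level behind it fell steeply with stage. Control OLs were 14.5-fold below control OPCs (log2 difference -3.86, SE 0.27, edgeR adjusted p = 3.03e-08). Sorted OPCs were at 2.51, 1.91 and 1.69 TPM and sorted OLs at 0.111, 0.116 and 0.105 TPM (log2 difference -1.44 on the log2(TPM + 1) scale, SE 0.18, limma adjusted p = 0.000365). Chrm3 passed the filter for sorted cells only through the OPC libraries, so that sorted call is not independent of the filter. Targeted OLs, at 2.40 to 4.85 CPM, thus stood between the control OLs and all OPC libraries, the lowest of which had 8.19 CPM. Summed cycling markers (6 genes), which were high in OPCs, went the other way from Chrm3 in targeted OLs. They had 340 to 347 CPM in controls against 150 to 194 CPM with guide 1 and 154 to 161 CPM with guide 2. Of these markers 4 of 6 fell (66.7%, against 6.50% of all genes called), and their part was not tested.

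Chrm1 was at 0.566 to 0.937 CPM in control OPCs, 0.401 to 1.36 CPM in targeted OPCs, 0.638 to 1.22 CPM in control OLs and 0.539 to 2.14 CPM in targeted OLs. With 7 to 33 counts per library, targeted and control libraries overlapped at both stages and no comparison called it. The log2 changes on targeting were -0.36 (SE 0.49, edgeR adjusted p = 0.772) in OPCs and 0.59 (SE 0.49, edgeR adjusted p = 0.605) in OLs. In sorted cells it was at most 0.242 TPM and under the filter.

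EDNRB is the endothelin receptor type B, found on OPCs and astrocytes, and endothelin signalling is known to slow the differentiation of OPCs. It lies at chr14:103814625-103844402 on the minus strand (GRCm38), and no annotated gene overlaps it. Ednrb was at 94.7, 72.0 and 97.2 CPM in control OPCs, at 106 and 125 CPM with guide 1 and at 90.2, 79.1 and 84.9 CPM with guide 2. Guide 1 libraries lay above the controls and guide 2 libraries within them (log2 change over both guides 0.19, SE 0.11, edgeR adjusted p = 0.424).

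In OLs, Ednrb was at 656, 607 and 559 CPM in controls, at 775, 796 and 781 CPM with guide 1 and at 862, 894 and 795 CPM with guide 2. In CPM, all targeted libraries were above all controls. In TPM, guide 1 OL library B was at 191 TPM, within the controls (183 to 208 TPM). Ednrb rose 1.34-fold (log2 change 0.42, SE 0.0725, edgeR adjusted p = 0.00918), a call that each guide gave alone and that was lost without control OL library B (adjusted p = 0.0656) or C (0.0615). The difference in response between stages was not called (log2 0.26, SE 0.13, edgeR adjusted p = 0.517). The rise came with a higher sum of astrocyte markers in targeted OLs, 7881 to 9223 CPM against 6988 to 7289 CPM. Of 11 tested, 1 rose and 0 fell (9.09%, near the 6.50% of all genes), with a median log2 change of 0.31. The group means did not move as one. Aldoc went from 1209 CPM in control OLs to 1954 (guide 1) and 1667 (guide 2). Apoe went from 2175 to 2884 and 2720 CPM. Sox9 went down from 415 to 332 and 370 CPM, and S100b from 205 to 185 and 160 CPM. The part of these markers in the rise of Ednrb was not tested.

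With stage, Ednrb showed the largest rise of the receptors in control cells. It was 6.91-fold higher in control OLs than in control OPCs (log2 difference 2.79, SE 0.11, edgeR adjusted p = 8.6e-11). In sorted cells it was at 21.7, 23.2 and 26.8 TPM in OPCs and at 93.1, 124 and 131 TPM in OLs (log2 difference 2.22, SE 0.15, limma adjusted p = 1.54e-05). In the same stage comparisons, 8 of 11 astrocyte markers tested were higher in control OLs and 0 lower (72.7%, against 43.0% of all genes). In sorted OLs 4 of 10 were higher and 3 lower (70%, near the 61.0% of all genes).

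**Figure D3:**
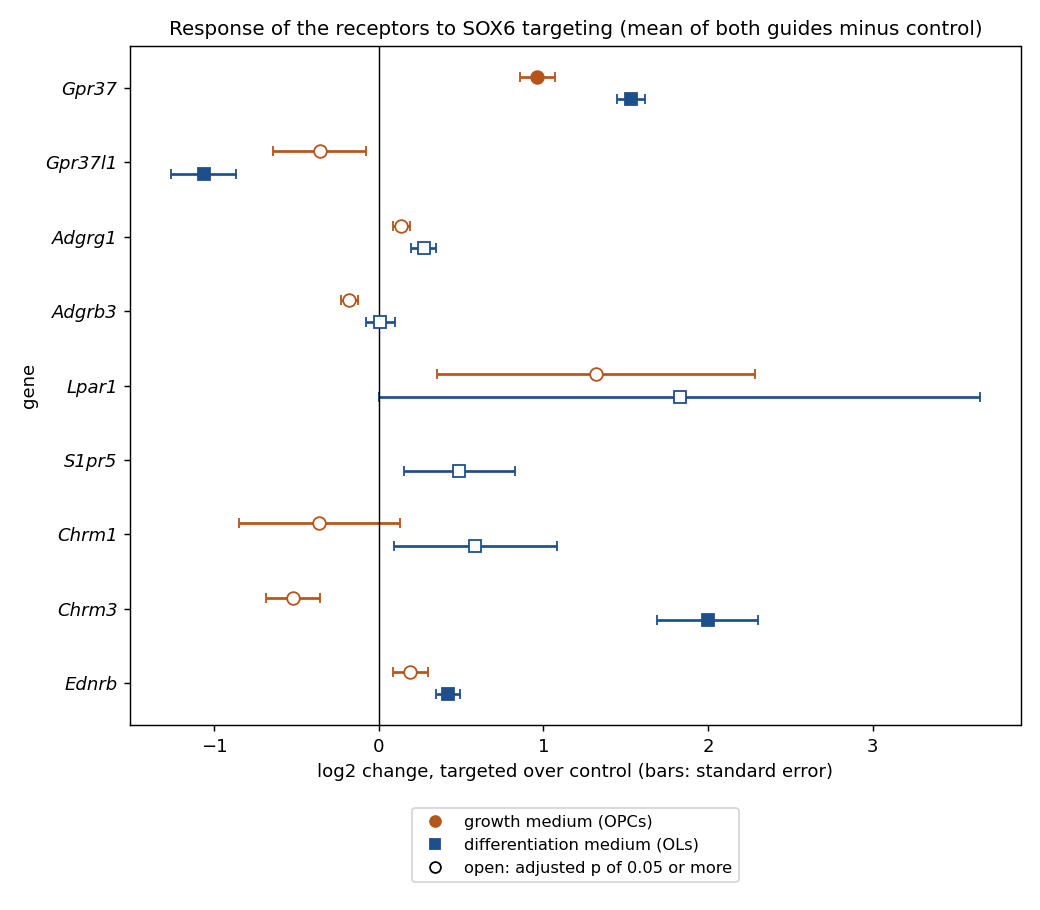
Log2 change of each receptor on SOX6 targeting, mean of both guides over control, in OPCs (circles) and in OLs (squares). Bars are standard errors and open symbols missed the threshold; Chrm3 lies at -0.52 in OPCs and 2.00 in OLs, and Gpr37 and Gpr37l1 lie on opposite sides of 0 in OLs.

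**Figure D4:**
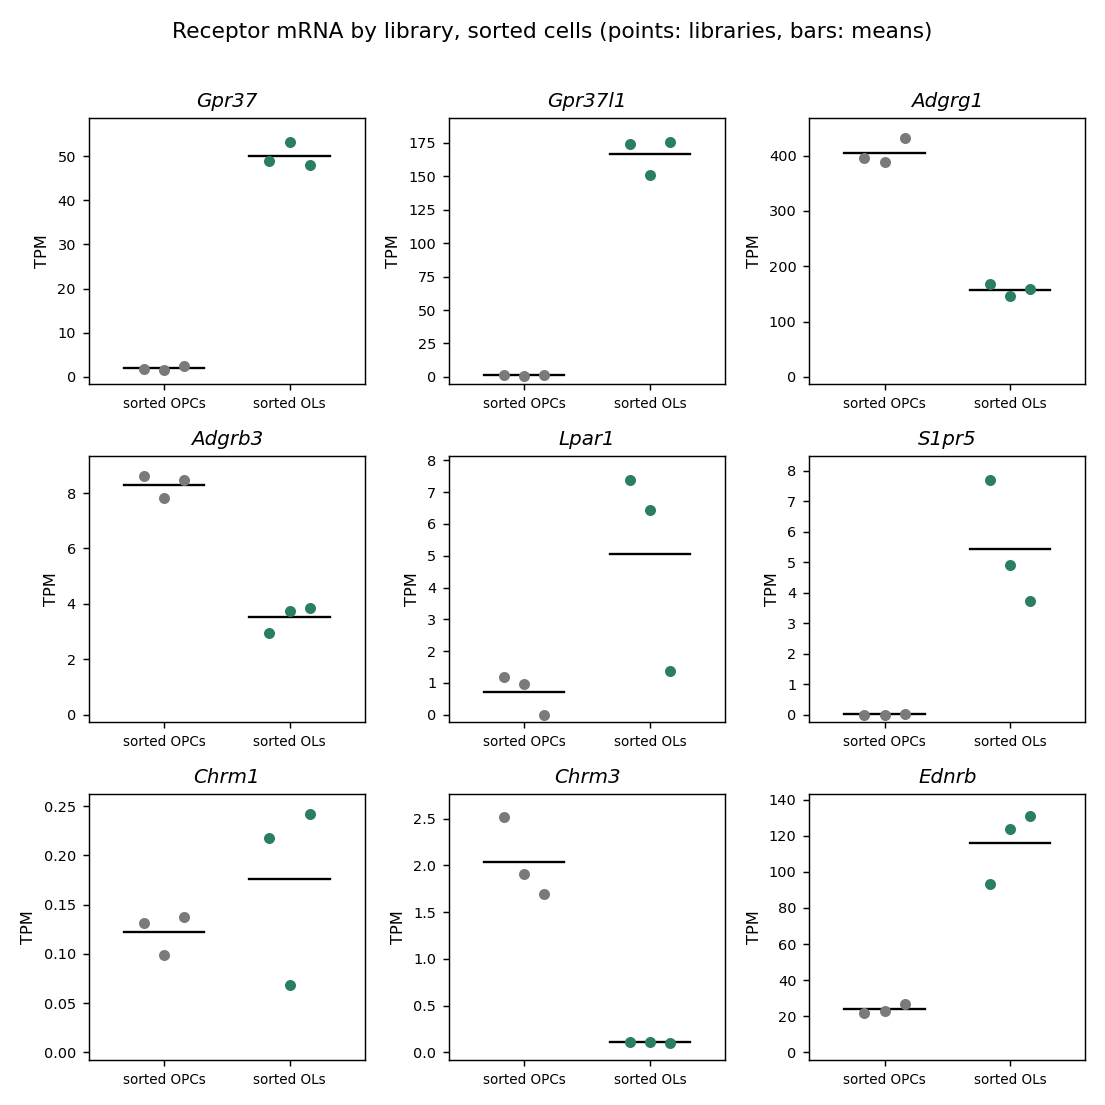
Levels of the 9 receptors in sorted OPCs and sorted OLs, in TPM on linear axes from 0, with libraries as points and means as bars. Gpr37, Gpr37l1, S1pr5 and Ednrb are high in OLs, Adgrg1, Adgrb3 and Chrm3 in OPCs, and Chrm1 overlaps at 0.0688 to 0.242 TPM.

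The start regions of the receptors were read from RefSeq (GRCm38.p6), which gave 11 windows of 250 bases before a start for 8 of the 9 genes. They were searched on both strands for AACAAT and AACAAAG, sequences that SOX proteins are known to bind, and for the E-box CANNTG that basic helix-loop-helix factors bind. Of 32851 RefSeq windows of that length, 9.42% held AACAAT, 5.03% AACAAAG and 66.2% CANNTG. Among the receptors only the third Lpar1 window held the SOX sequences (3 matches to AACAAT and 1 to AACAAAG). A window of Gpr37 and one of Gpr37l1 each held 1 E-box, and those of Chrm3 and Ednrb held none of these letters. Windows are printed for 3 receptors that responded in OLs and for Lpar1, with matches in capitals, where GENCODE M21 places no exon; the Gpr37 window lies in annotated exons and is not shown. They are Gpr37l1 (chr1:135167682-135167931), Chrm3 (the 206 bases of chr13:10360848-10361053), Ednrb (chr14:103843702-103843951) and Lpar1 (chr4:58499404-58499653), all read on the minus strand. In the Lpar1 window 1 of the 2 E-boxes shares bases with an AACAAT match.
Gpr37l1: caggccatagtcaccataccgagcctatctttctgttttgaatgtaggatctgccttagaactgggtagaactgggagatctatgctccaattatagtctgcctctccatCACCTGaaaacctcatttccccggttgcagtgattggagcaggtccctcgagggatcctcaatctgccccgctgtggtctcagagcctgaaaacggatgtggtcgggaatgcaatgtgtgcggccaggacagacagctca
Chrm3: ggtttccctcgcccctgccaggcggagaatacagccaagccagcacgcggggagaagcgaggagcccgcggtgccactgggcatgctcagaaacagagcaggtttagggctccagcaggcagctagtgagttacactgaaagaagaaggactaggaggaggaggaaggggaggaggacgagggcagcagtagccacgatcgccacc
Ednrb: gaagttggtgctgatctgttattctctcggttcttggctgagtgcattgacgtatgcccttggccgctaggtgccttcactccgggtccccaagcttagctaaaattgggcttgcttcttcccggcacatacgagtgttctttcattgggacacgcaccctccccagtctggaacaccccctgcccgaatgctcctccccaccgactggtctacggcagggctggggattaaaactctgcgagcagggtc
Lpar1: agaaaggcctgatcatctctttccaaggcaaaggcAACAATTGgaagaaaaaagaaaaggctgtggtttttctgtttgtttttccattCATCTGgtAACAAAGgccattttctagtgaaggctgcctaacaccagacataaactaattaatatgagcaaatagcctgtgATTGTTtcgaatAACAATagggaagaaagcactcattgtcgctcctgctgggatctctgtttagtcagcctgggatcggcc

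The ligands, ligand enzymes and binding partners of these receptors were described through a list of 28 genes. In OPCs 3 of the 19 tested (15.8%, against 3.59% of all genes) passed on SOX6 targeting: C1ql1, which encodes a ligand of ADGRB3, fell from 14.3 to 4.06 (guide 1) and 4.86 (guide 2) CPM in the mean, Enpp2 (autotaxin, the enzyme that makes lysophosphatidic acid) rose from 7.64 to 14.4 and 13.9 CPM, and Plpp3, a lipid phosphatase that breaks it down, rose from 475 to 617 and 577 CPM. In OLs 5 of 18 passed (27.8%, against 6.50% of all genes), 2 higher and 3 lower. C1ql1 fell there by 1.75 on the log2 scale (edgeR adjusted p = 7.62e-06), from 91.7 to 25.7 and 29.1 CPM. Enpp2 rose from 47.0 to 75.0 and 88.1 CPM (log2 change 0.79, edgeR adjusted p = 0.00515). C1ql1 and Enpp2 were called in OLs in 18 of 18 alternatives, while the OPC call of Enpp2 was lost without guide 1 OPC library A (edgeR adjusted p = 0.0631) or B (0.0692). C1ql2 rose, and Bche (butyrylcholinesterase) and Tgm2 (transglutaminase 2, a ligand of ADGRG1) fell, but these 3 lost the call in 11, 8 and 6 of 18 alternatives. C1ql1 is also one of the progenitor markers.

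With stage, 13 of 21 genes of the ligand list were higher and 1 lower in control OLs, and 11 of 17 were higher and 1 lower in sorted OLs. The share called was 66.7% against 43.0% of all genes in control cells, and 70.6% against 61.0% in sorted cells, where it lay near the background. Enpp2 went from 7.64 to 47.0 CPM in control cells and from 2.88 to 119 TPM in sorted cells. Mfsd2a, a lysolipid transporter, went from 0.273 to 5.57 CPM and from 3.48 to 32 TPM, and C1ql1 from 14.3 to 91.7 CPM and from 15.8 to 41.2 TPM. Control OLs also had more Tgm2 (2.82 against 1.02 CPM, a call lost in 7 of 24 alternatives) and Plpp3 (1058 against 475 CPM). In sorted OLs, Spns2, an exporter of sphingosine 1-phosphate (33.3 against 3.98 TPM), Plpp2 (5.03 against 0.462 TPM), Bche (70.9 against 20.1 TPM) and Ece1, the endothelin converting enzyme (198 against 74.3 TPM), were higher by limma. The list's median log2 difference was 0.61 in control cells and 0.66 in sorted cells, against 0.021 and -0.14 over all genes tested.

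Of the close relatives of the receptors (19 genes), 1 of 11 tested in OPCs passed on targeting (9.09%, against 3.59% of all genes): S1pr2 fell from 23.4 to 16.5 and 16.7 CPM, a call lost in 7 of 17 alternatives. In OLs 3 of 13 rose (23.1%, against 6.50% of all genes) and 0 fell. S1pr1, another sphingosine 1-phosphate receptor, rose from 128 to 187 and 193 CPM (log2 change 0.57, edgeR adjusted p = 0.0014), Lpar4 from 39.8 to 52.3 and 54.9 CPM, and Adgrb1 from 253 to 365 and 312 CPM. S1pr1 was called there in 18 of 18 alternatives, Lpar4 in 16 and Adgrb1 in 15. With stage S1pr1 went from 14.2 CPM in control OPCs to 128 CPM in control OLs. It was at 6.10 TPM in sorted OPCs and 21.4 ± 13.1 TPM (SD, n = 3) in sorted OLs. Of the relatives, 6 of 13 were higher and 3 lower in control OLs, among them Chrm4 (4.12 against 0.833 CPM) and Ednra (38.1 against 19.8 CPM), which were higher, and Lpar6 (22.9 against 39 CPM), which was lower. S1pr3 and Adgrg3 were higher at means under 1 CPM, and their calls were lost in 13 and 7 of 23 alternatives. In sorted OLs, S1pr1 and Chrm4 were higher and Adgrb1, Lpar6, S1pr2 and Adgrb2 lower. The share of relatives called with stage was 69.2% in control cells and 66.7% in sorted cells, beside 43.0% and 61.0% of all genes. The response to targeting differed between the stages for 1 of 13, Lpar4 (log2 0.49, edgeR adjusted p = 0.042), a call lost in 19 of 25 alternatives.

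Other receptors of the class studied in this lineage gave 1 higher of 15 tested in OPCs and 4 higher of 16 in OLs, with 0 lower at either stage (6.67% and 25% of those tested, against 3.59% and 6.50% of all genes). Of the G proteins and effectors, 1 of 35 fell in OPCs, and 2 rose and 2 fell of 35 in OLs (2.86% and 11.4%). Of the kinases, arrestins and RGS proteins that end receptor signals, 1 rose of 16 in OPCs and 1 rose of 15 in OLs (6.25% and 6.67%, the latter near the background). Without guide 1 OL library B the OL counts were 8 for the ligand list, 4 for the relatives, 8 for the other receptors, 17 for G proteins and effectors, and 2 for signal termination, while the number of all genes called went from 874 to 2337. Between stages, 2 other receptors, 2 G proteins or effectors and 1 gene of signal termination responded differently to targeting (12.5%, 5.56% and 6.25% of those tested, against 1.69% of all genes). For the ligand list that number was 0 of 21 by edgeR, with 6 at an unadjusted p under 0.05 and 2 by DESeq2.

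The genes whose group means ran most like those of a receptor were found over the 6 groups of the SOX6 experiment, as the root mean square (RMS) difference of log2 CPM profiles, each centred on its own mean, among 8765 genes. For Gpr37 they were Ryr2 (RMS difference 0.175), Hs3st1 (0.190) and Adamts4 (0.196). Adamts4, which encodes a protease known from oligodendrocytes, had means of 13.9, 27.0 and 27.0 CPM in OPCs and 50.6, 97.4 and 102 CPM in OLs, for control, guide 1 and guide 2. For Gpr37l1 they were Lmtk3 (0.104), Sh3rf1 (0.124) and Adcy9 (0.144). For Chrm3 they were Smc4 (0.291), Alb (0.311) and Unc13a (0.325), and for Ednrb Paqr8 (0.0917), Cdh11 (0.101) and Daam2 (0.125). The RMS of the receptor's own centred profile was 1.04 for Gpr37, 0.42 for Gpr37l1, 1.12 for Chrm3 and 1.49 for Ednrb. The differences are therefore not ranked between receptors. These are descriptions over 6 means and carry no test.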

How the data were processed

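Per the submitters' processing notes, the authors used Salmon 0.14.1, DESeq2 (version not given in the sources used here) and the build mm10; library preparation was with NEBNext poly(A) and Ultra kits per the labels' protocols. The authors deposited estimated counts per symbol for the SOX6 experiment, TPM for all libraries (77.6% to 79.6% of the TPM scale in the symbols held here) and tables of log2 changes with adjusted p-values. The sorted table holds 26 date-like names, and its depth is unknown.

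Estimated counts were rounded and tested with edgeR 4.0.16 (filterByExpr, minimum count 10 and total 15; TMM; quasi-likelihood F test, two-sided; Benjamini-Hochberg over all genes). Each stage was fitted alone for targeting (mean of both guides minus control), and all 17 libraries together for stage. For sorted cells limma 3.58.1 (trended variance) was run on log2(TPM + 1) of genes with at least 1 TPM in 3 of 6 libraries; this scale understates changes of low genes. CPM use 1 TMM scale over all 17 libraries. The SE is the absolute log2 change divided by the square root of F in edgeR. Scripts were tested on simulated data. Alternatives, DESeq2 1.42.0 and a block on column letters (added after seeing the data) among them, are in the closing section.

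All 9 receptors were named, with at most 6 called genes of the ligand and relatives lists per comparison, by size, and 3 genes of like profile per receptor that responded to targeting. The receptors and lists were chosen with earlier results of these data known. A gene of the ligand list is not reported here.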

Additional observations from a re-analysis of the deposited data

Results flagged for a closer look

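For 2 receptors the response to SOX6 targeting differed between cells in differentiation medium and OPCs, by a test of the difference itself. For Chrm3 the log2 change in differentiation medium minus that in OPCs was 2.54 (SE 0.32, edgeR adjusted p = 0.000793), with targeted libraries above all controls in differentiation medium (6 of 6) and a lower mean in OPCs. For Gpr37 it was 0.59 (SE 0.11, edgeR adjusted p = 0.0163), with targeted libraries above all controls at both stages. Stage and table cannot be told apart in either.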

How the results depend on the processing

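Over all receptors and alternatives, the results kept direction and side of the threshold in 133 of 136 cases for targeting in OPCs, 147 of 162 for targeting in OLs, 209 of 225 for the difference between stages, 195 of 215 for control OLs against control OPCs and 69 of 74 for sorted cells. These cases include receptors that were not called at first and had no call to lose. Calls were lost in 0, 5, 6, 18 and 5 cases, in that order. S1pr5 in control cells made up 15 of the 18. The number of all genes called moved more. For targeting in OPCs (479 genes) it was 273 with guide 2 only, 254 with both stages in 1 fit, 236 with a transcript length offset, 816 by DESeq2, and 149 to 550 with a library left out. For targeting in OLs (874) it was 1604 with both stages in 1 fit, 582 with the length offset, 1500 by DESeq2, and 353 to 2337 with a library left out, the highest without guide 1 OL library B. For the difference between stages (243) it was 93 with guide 1 only, 104 with the length offset, 525 by DESeq2, and 113 to 638 with a library left out, the highest again without that library. Library totals in place of TMM gave 315 higher and 553 lower genes in OLs (421 and 453 with TMM) and 86 higher and 161 lower between stages (132 and 111).

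Direction changed only for small or noisy values: for targeting in OPCs with guide 2 only, Chrm1 (0.088) and Ednrb (-0.044); in OLs, Adgrb3 with guide 1 only (-0.0028), with library totals (-0.054) and over left-out libraries (-0.030 to 0.050), and Lpar1 (-2.24 to 2.36); between stages, Ednrb with guide 1 only (-0.028), Lpar1 (-3.54 to 1.08) and S1pr5 (-0.47 to 0.31); in control cells with stage, Adgrg1 (-0.025 to 0.067) and Chrm1 (-0.025 to 0.47). The cause was not tested. Leaving out 1 of 2 guide 1 OPC libraries assumes that the other varies like the other groups. The columns carry letters that were not tied to the labels' replicate numbers, and a replicate block on these letters was added after seeing the data. Libraries of 1 letter did not deviate together from their group means (r from -0.0436 to 0.0743 across genes, 0 pairs over 0.1), and 1 of 8 OPC, 4 of 9 OL and 4 of 6 sorted libraries were closest to their own letter. The replicate block gave 274 genes for targeting in OPCs, 607 in OLs and 121 for the difference between stages, where Lpar1 changed sign (-1.25). Among receptor calls it lost Gpr37 between stages (edgeR adjusted p = 0.0714) and S1pr5 in control cells with stage (0.0634). In sorted cells 3 of 10 alternatives gave no value for S1pr5 and Chrm3, which then fell under the filter. Lpar1, S1pr5 and Chrm1 had few counts.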
